A study of Mus musculus with 17 samples.

Results

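The mouse microRNAs (miRNAs) mmu-miR-26a-5p, mmu-miR-26b-5p, mmu-miR-101a-3p and mmu-miR-101b-3p (the prefix mmu, for mouse, is mostly left out from here) were chosen by name, as the main mature products of the miR-26 and miR-101 precursors, and make up 4 of the 1033 miRNAs in the deposited table. All 4 passed the filter on low values, which kept 521 miRNAs. They were followed in small RNA libraries of the mouse embryonic stem cell (ESC) lines D3 and B8 during differentiation. For D3 there were 3 libraries of undifferentiated ESCs at day 0, 2 of embryoid bodies at day 7 (replicates 2 and 3) and 3 of embryoid body outgrowths at day 21. For B8 there were 3 libraries of embryoid bodies at day 7 and 3 of undifferentiated ESCs at day 0. These are 14 of 17 labelled samples, and B8 at day 21, with 3 labelled samples, was not analysed here. The day 0 cells of both lines grew with LIF, the cytokine that maintains pluripotency, and without feeder cells. All differentiating cultures, in either line, were in medium without LIF to which retinoic acid, a supplement of insulin, transferrin and selenium, and N2 had been added. Embryoid bodies were formed in hanging drops. Whether replicates came from separate cultures is not in the labels, and a p-value here reflects only how far these libraries scatter, which may be technical scatter.

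A miRNA guides the Argonaute protein to messenger RNAs, mostly through pairing of its seed, bases 2 to 8 from the 5′ end, with sites in the 3′ untranslated region (3′ UTR), and lowers their translation and stability. Ezh2 is the catalytic subunit of Polycomb repressive complex 2, which methylates lysine 27 of histone H3 and keeps developmental genes silent in ESCs. Both miR-26 and miR-101 have been reported to target Ezh2, miR-26a in muscle cell differentiation and miR-101 in cancer cells. No messenger RNA or protein was measured in these libraries, so the level of Ezh2 itself is not known here.

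The mature sequences, from RefSeq (GRCm38.p6), are shown because they give the shared and differing seeds of the 4 miRNAs. Capitals mark bases 2 to 8.
mmu-miR-26a-5p: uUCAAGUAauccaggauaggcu
mmu-miR-26b-5p: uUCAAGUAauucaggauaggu
mmu-miR-101a-3p: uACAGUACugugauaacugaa
mmu-miR-101b-3p: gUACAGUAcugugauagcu
The miR-26 pair had the same seed, UCAAGUA. Over the 21 bases that could be compared, 19 were identical, and the differences were C11U and C21U (miR-26a-5p base first, counted from its 5′ end). The annotated start of miR-101b-3p lay 1 base upstream of that of miR-101a-3p, so that their seeds as annotated differ by a shift. With that shift, 17 of 18 compared bases were identical, with the single difference A16G (miR-101a-3p base first, counted from its 5′ end). Since sequences this close can share reads, and the counting of reads that match several miRNAs is not given in the sources used here, the split between miR-26a-5p and miR-26b-5p and between miR-101a-3p and miR-101b-3p is uncertain.

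Mature miR-26a-5p is encoded at 2 loci, Mir26a-1 in an intron of Ctdspl (chr9:119031811-119031832, plus strand) and Mir26a-2 within Ctdsp2 (chr10:126995543-126995564, plus strand), where 2 annotated transcripts have an exon that overlaps the precursor. Its reads cannot be divided between these loci. Mature miR-26b-5p lies in an intron of Ctdsp1 (chr1:74394324-74394344, plus strand). Ctdsp1, Ctdsp2 and Ctdspl encode small phosphatases of the RNA polymerase II tail, so that each miR-26 precursor sits in a member of the same gene family. Mature miR-101a-3p lies within the long noncoding RNA gene E130102H24Rik (chr4:101346957-101346977, minus strand) and miR-101b-3p in an intron of Rcl1 (chr19:29135338-29135356, plus strand).

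The 3′ UTR of Ezh2 (GENCODE M21, GRCm38, minus strand, 402 bases, present in 4 of 5 coding transcripts) was searched on its transcript strand for the 7 bases complementary to each seed. The matches are shown with the bases before them, since they are the sites that the miRNAs could pair with, and capitals mark the seed match.
miR-26 match: atttgaataaagaaTACTTGAa
miR-101a match 1: ttcaggaaccttgaGTACTGTg
miR-101a match 2: tctgaatttgcaaaGTACTGTa
The miR-26 match, TACTTGA, occurred 1 time (chr6:47530286-47530307), and 2.85% of the 15290 3′ UTR windows of the same length held it. The miR-101a match, GTACTGT, occurred 2 times (chr6:47530475-47530496 and chr6:47530420-47530441), and 2.71% of the windows held it. The shifted seed of miR-101b-3p as annotated has the match TACTGTA, found 1 time, overlapping the second miR-101a match, and in 3.33% of the windows. A seed match is a description of the sequence and does not show that a site is used.

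Values were read on 2 scales. The deposited values had column totals that differed 17.7-fold between libraries, beside an 18.8-fold difference in miRNA reads (56377 to 1060306 per library). The same libraries were lowest and highest in both, but totals did not follow reads throughout. Replicate 3 of B8 at day 7 had 141823 reads and a total of 194623. Replicate 1 of D3 at day 21 had 547213 reads and a total of 181721. On this scale most miRNAs were higher in D3 at day 7 and day 21 than in D3 at day 0. The relative scale, used unless stated otherwise, divides each library by the median of its ratios over the 319 miRNAs above 0 in every library, so that a value gives a miRNA against the typical miRNA of its library. The relative scale still left a shift of the median miRNA of -0.06 (log2) in B8 at day 7 against day 0, 0.27 in D3 at day 7 against day 0, 0.43 in D3 at day 21 against day 0, 0.02 in D3 at day 21 against day 7, -0.13 in D3 against B8 at day 0 and 0.39 in D3 against B8 at day 7, and the deposited scale one of -0.21, 2.25, 1.69, -0.60, -0.90 and 1.71 in the same order. For the change from day 0 to day 7 in D3 minus that in B8, the median miRNA stood at 0.51 on the relative scale. On the deposited scale it stood at 2.64. The values are not divided by length, since all 4 miRNAs are 19 to 22 bases long. As a check of the stages, the 9 markers of pluripotent cells, 6 of the miR-290 cluster and 3 of the miR-302 cluster, had summed relative values of 15721 to 19188 (day 0), 1273 to 1513 (day 7) and 1186 to 1372 (day 21) in D3, and 4651 to 9464 (day 7) and 20515 to 25654 (day 0) in B8. The sum hides a difference between the clusters in D3 at day 21 against day 0, where the 6 of the miR-290 cluster were called lower in limma and the 3 of the miR-302 cluster, miR-302a-3p, miR-302b-3p and miR-302d-3p, were called higher (2 of the 3 with equal column totals). miR-302d-3p had relative values of 114 to 129 at day 0, 36.9 to 40.6 at day 7 and 201 to 272 at day 21 in D3, and of 16.6 to 25.8 at day 7 and 132 to 160.4 at day 0 in B8. In bulk samples such as these, fewer cells of a type and less RNA per cell cannot be told apart.

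miR-26a-5p supplied most of the reads of the 4 miRNAs in every library, between 88.3% and 96.9% with a median of 94.7%. miR-26b-5p supplied 2.12% to 5.46%, miR-101a-3p 0.860% to 5.94% and miR-101b-3p 0% to 0.803%. Per library this came to 234 to 15895 reads of miR-26a-5p, 14 to 585 of miR-26b-5p, 10 to 179 of miR-101a-3p and 0 to 36 of miR-101b-3p. By its mean value miR-26a-5p ranked 35th of all miRNAs in D3 at day 0, 19th at day 7 and 11th at day 21, and 23rd in B8 at day 7 and 30th in B8 at day 0. It made up 0.438% ± 0.0276 of the miRNA signal in D3 at day 0 (SD, n = 3), 0.584% ± 0.0406 at day 7 (SD, n = 2) and 2.13% ± 0.0132 at day 21 (SD, n = 3), and 0.763% ± 0.232 in B8 at day 7 and 0.621% ± 0.0468 in B8 at day 0 (SD, n = 3 each).

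On the relative scale mmu-miR-26a-5p rose with differentiation in D3 at both stages and by less in B8. With equal column totals its log2 changes from day 0 to day 7 were 0.41 in D3 and 0.26 in B8, neither called in limma. Its relative values in D3 were 588, 528 and 511 at day 0, 1956 and 1885 at day 7, and 3104, 3347 and 3688 at day 21. In B8 they were 2005, 1269.6 and 1362 at day 7, against 979, 919.7 and 735 at day 0. Neither the stages of D3 nor the days of B8 overlapped. The group means were 542 ± 40.3, 1921 ± 50.4 and 3379.5 ± 293 at days 0, 7 and 21 of D3 (SD, n = 3, 2 and 3), and 1546 ± 401 in B8 at day 7 and 878 ± 127 in B8 at day 0 (SD, n = 3 each). By group mean the levels thus ran from D3 at day 0, the lowest, through B8 at day 0, B8 at day 7 and D3 at day 7 to D3 at day 21, and of these neighbours only B8 at day 7 and D3 at day 7 overlapped.

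On the relative scale mmu-miR-26b-5p, with the same seed, rose in D3 and showed no call in B8. With equal column totals its log2 change in D3 at day 7 against day 0 was -0.23 and not called in limma. In D3 it had relative values of 32.0, 22.7 and 30.6 at day 0, 62.5 and 65.0 at day 7, and 91.8, 116 and 143 at day 21. In B8 it had 44.1, 46.9 and 29.8 at day 7, against 39.2, 42.7 and 44.7 at day 0. The 3 stages of D3 did not overlap, and the days of B8 did. The means were 28.5 ± 5.01, 63.8 ± 1.78 and 117 ± 25.4 in D3 at days 0, 7 and 21 (SD, n = 3, 2 and 3), and 40.3 ± 9.14 in B8 at day 7 and 42.2 ± 2.78 in B8 at day 0 (SD, n = 3 each). By mean the order was D3 at day 0, B8 at day 7, B8 at day 0, D3 at day 7 and D3 at day 21, of which D3 at day 0 overlapped B8 at day 7, and B8 at day 7 overlapped B8 at day 0.

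mmu-miR-101a-3p stayed within a narrow range and was lower in B8 embryoid bodies than in B8 ESCs. Its relative values in D3 were 24.8, 35.1 and 32.8 at day 0, 23.9 and 18.01 at day 7, and 29.0, 30.1 and 43.6 at day 21. In B8 they were 19.95, 28.1 and 16.6 at day 7, against 38.7, 44.4 and 38.2 at day 0. All 3 day 7 libraries of B8 lay below all 3 of its day 0 libraries, and both D3 libraries of day 7 lay below those of day 0 and day 21, which overlapped each other. The means were 30.9 ± 5.38, 21.0 ± 4.19 and 34.2 ± 8.14 in D3 at days 0, 7 and 21 (SD, n = 3, 2 and 3), and 21.6 ± 5.94 in B8 at day 7 and 40.4 ± 3.45 in B8 at day 0 (SD, n = 3 each). In order of these means D3 at day 7, B8 at day 7, D3 at day 0, D3 at day 21 and B8 at day 0 overlapped each next group throughout.

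mmu-miR-101b-3p was near the limit of detection. Its relative values in D3 were 3.10, 4.74 and 4.37 at day 0, from 10 reads in all, 2.33 and 4.58 at day 7, from 22 reads, and 2.95, 7.58 and 5.60 at day 21, from 70 reads. In B8 they were 0.831, 0 and 0 at day 7, from 1 read in all, against 2.69, 4.04 and 0.932 at day 0, from 13 reads. The relative value of 3 reads, taken as the limit that a count of 0 allows, averaged 4.17, 0.957 and 0.723 in D3 at days 0, 7 and 21, 3.21 in B8 at day 7 and 2.05 in B8 at day 0. Such limits and all intervals on reads cover counting error only, since PCR copies are not independent molecules. The D3 stages overlapped, and only B8 at day 7 was below all other groups. Its highest value, 0.831, and the lowest of B8 at day 0, 0.932, were each 1 read, so these libraries differed only by their scaling.

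**Figure D1:**
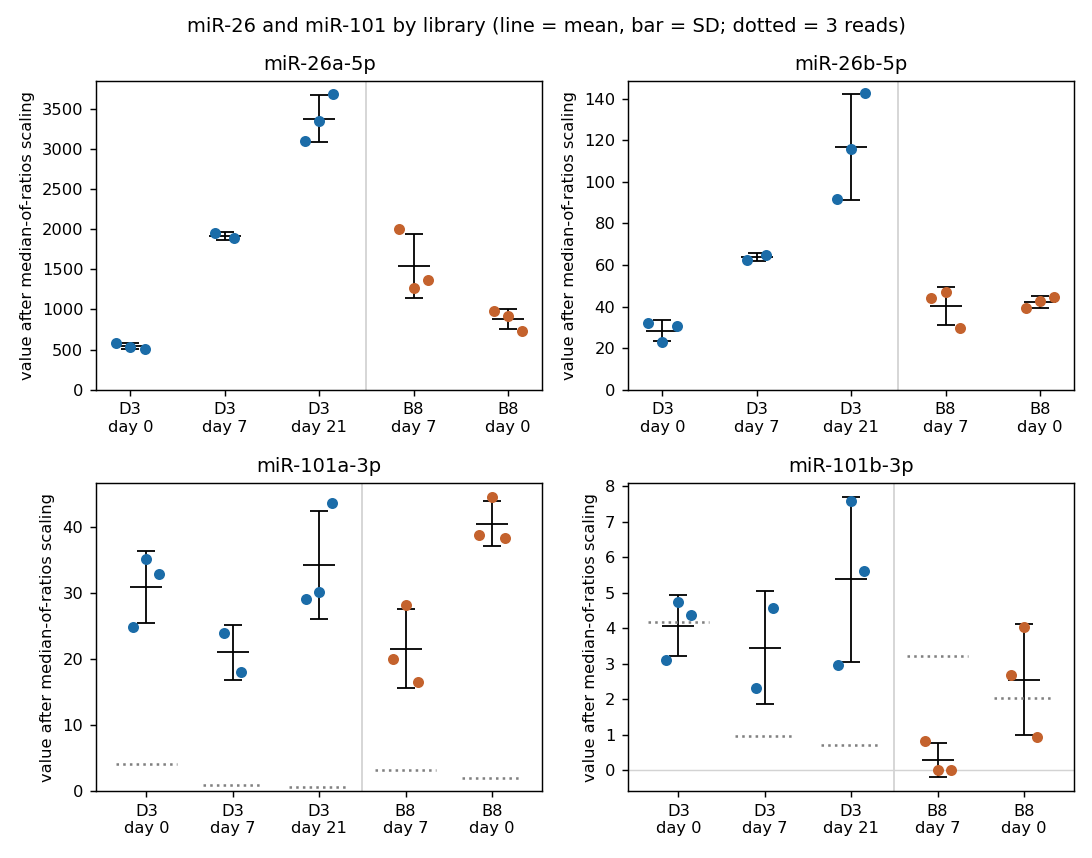
Relative values (y axis, deposited value divided by the median-of-ratios factor of the library, a unit-free level) of the 4 miRNAs in each library of D3 at days 0, 7 and 21 and of B8 at days 7 and 0; horizontal lines are group means, bars are SD and dotted lines the value of 3 reads. miR-26a-5p reaches 3104 to 3688 in D3 at day 21, against 511 to 588 in D3 at day 0, while miR-101a-3p stays between 16.6 and 44.4 throughout.

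In B8, embryoid bodies at day 7 were compared with ESCs at day 0 to ask what differentiation did to each miRNA. miR-26a-5p was higher by 0.80 ± 0.17 on the log2 scale (SE), which is 1.74-fold (limma, adjusted p = 0.000962). miR-101a-3p fell by 0.93 ± 0.26 (adjusted p = 0.00645) and was 0.526 of its day 0 level. miR-26b-5p differed by -0.09 ± 0.23 (95% interval -0.58 to 0.39, adjusted p = 0.758 in limma), and without replicate 3 of B8 at day 7 its difference was 0.11. miR-101b-3p passed the test with a fitted change of -2.26 ± 0.61 (limma, adjusted p = 0.00514), but its size depends on the pseudocount, and the reads themselves, 1 at day 7 and 13 at day 0, gave a ratio of 0.112 with a 95% counting interval of 0.00265 to 0.749. So 1 of the 4 rose and 2 fell, beside 26.9% of all tested miRNAs higher and 25.7% lower, and 3 of the 4 had days that did not overlap, beside 55.5% of all tested. For miR-101b-3p the nearest libraries of the 2 days had 1 read each. DESeq2 called 1 of the 4 lower, since miR-101b-3p missed the threshold there (-2.92, DESeq2 adjusted p = 0.0565). On the deposited scale, where 21.9% were higher and 28% lower, the same 2 fell and miR-26a-5p lost its call (0.57, limma adjusted p = 0.0743), as it did with equal column totals (0.26, adjusted p = 0.239). With column totals made equal after miR-10a and miR-10b were set aside, miR-101a-3p stood at -0.64 and lost its call (adjusted p = 0.058). Beside these changes, 8 of the 9 markers of pluripotent cells were lower in B8 at day 7 than at day 0 in limma, none of them at 0. Of the 4 tested markers of neural cells 2 were higher, with summed relative values of 2149 to 2889 at day 7, against 118 to 137 at day 0, where miR-137-3p was at 0, and of the 5 of mesenchyme and smooth muscle 1 was higher and 2 lower. Of the 3 tested blood markers 2 were lower, with sums of 21.6 to 35.3 at day 7, against 329.9 to 424 at day 0. The part of these cells in the changes of the members was not tested.

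In D3, embryoid bodies at day 7 were compared with ESCs at day 0. Both miR-26 miRNAs rose, miR-26a-5p by 1.83 ± 0.19 (3.55-fold, limma adjusted p = 3.54e-07) and miR-26b-5p by 1.17 ± 0.26 (2.25-fold, adjusted p = 0.000806). miR-101a-3p differed by -0.55 ± 0.29 (95% interval -1.16 to 0.07, limma adjusted p = 0.115) and miR-101b-3p by -0.26 ± 0.68 (95% interval -1.71 to 1.18, adjusted p = 0.772). Without replicate 2 of D3 at day 7 the difference of miR-101b-3p was 0.18. Thus 2 of 4 rose and 0 fell at an adjusted p under 0.05 in limma, beside 36.1% of all tested higher and 26.9% lower. Of the 4, 3 had days that did not overlap, beside 72.6% of all tested. No member was lower at an unadjusted p under 0.05 in limma or by DESeq2, while edgeR's quasi-likelihood test called miR-101a-3p lower (-0.75, adjusted p = 0.0302). On the deposited scale all 4 were higher, beside 70.4% of all tested miRNAs higher and 6.91% lower: miR-26a-5p by 4.12, miR-26b-5p by 3.43, miR-101a-3p by 1.71 and miR-101b-3p by 1.77, the last of these against a median miRNA at 2.25. The direction of the miR-101 pair in this comparison therefore turned with the scale. With equal column totals miR-26a-5p stood at 0.41 (limma adjusted p = 0.0768) and miR-26b-5p at -0.23 (adjusted p = 0.509). There miR-101a-3p was called lower (-1.94, limma adjusted p = 4.32e-05), so that 0 of 4 rose and 1 fell. On that scaling more of all tested miRNAs were called lower than higher, with the counts given in the last section. With totals made equal after miR-10a and miR-10b were set aside, both miR-26 miRNAs kept their calls and miR-101a-3p had none. Cell type markers moved in the same comparison. Of the 9 markers of pluripotent cells 8 were lower in limma, and all 5 of mesenchyme and smooth muscle were higher (median change 6.71), with summed relative values of 2462 to 2859 at day 7, against 224 to 286 at day 0, where miR-214-3p was at 0. Of the 4 tested markers of neural cells 3 were higher, with sums of 4156 to 4964 at day 7, against 96.1 to 111 at day 0, where miR-137-3p was at 0. Deposited values had 5 of the 9 pluripotent markers lower and 1 higher. What part these cells had in the miR-26 rises was not tested.

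Outgrowths of D3 at day 21 were then set against D3 ESCs at day 0. miR-26a-5p was higher by 2.64 ± 0.17, a 6.22-fold rise (limma, adjusted p = 5.52e-10), and miR-26b-5p by 2.02 ± 0.23, a 4.04-fold rise (adjusted p = 8.12e-07). The rises of both passed the threshold on each of the 4 scalings tried, at 2.28 to 4.20 for miR-26a-5p and 1.66 to 3.55 for miR-26b-5p. miR-101a-3p differed by 0.14 ± 0.26 (95% interval -0.41 to 0.69, limma adjusted p = 0.66) and miR-101b-3p by 0.30 ± 0.61 (95% interval -0.99 to 1.60, adjusted p = 0.68). The sign for miR-101a-3p turned without replicate 1 of D3 at day 0 (-0.01) and without replicate 3 of D3 at day 21 (-0.05). Here 2 of 4 rose and 0 fell at an adjusted p under 0.05 in limma, beside 38% of all tested higher and 25% lower, and those 2 had no overlap between days, beside 68.7% of all tested. The count lower was 0 also at an unadjusted p and by edgeR and DESeq2. On the deposited scale all 4 were higher, beside 65.3% of all tested miRNAs higher and 10.2% lower, with miR-101a-3p at 1.67 and miR-101b-3p at 1.66 against a median miRNA at 1.69. Markers of several other cell types were higher at day 21 as well, and of the pluripotent markers 6 were lower and 3 higher. Of the 3 tested blood markers 1 was higher and 1 lower, with summed relative values of 17.3 to 21.3 at day 21, against 19.6 to 23.7 at day 0. All 5 of mesenchyme and smooth muscle were called higher in limma, with summed relative values of 5838 to 8756 at day 21, against 224 to 286 at day 0, where miR-214-3p was at 0. All 4 of heart and skeletal muscle were called, with sums of 186 to 542 at day 21, against 0 to 2.07 at day 0, where miR-1a-3p was at 0, and 3 of 4 of endoderm, with sums of 438 to 479.6, against 99.2 to 148. Of the 4 tested markers of neural cells 2 were higher, with sums of 999 to 1254.0 at day 21, against 96.1 to 111 at day 0. The part of these cells in the miR-26 rises was not tested.

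From the embryoid bodies of D3 to its outgrowths, day 21 against day 7, miR-26a-5p was higher by 0.81 ± 0.19 (1.76-fold, limma adjusted p = 0.00505) and miR-26b-5p by 0.85 ± 0.26 (1.80-fold, adjusted p = 0.0216). miR-101a-3p differed by 0.69 ± 0.29 (95% interval 0.07 to 1.30, limma adjusted p = 0.0938) and was called by edgeR's quasi-likelihood test on the recovered reads (0.90, adjusted p = 0.00592). miR-101b-3p differed by 0.57 ± 0.68 (95% interval -0.88 to 2.01, limma adjusted p = 0.608). In limma 2 of 4 rose and 0 fell, beside 16.1% and 10.4% of all tested miRNAs, and 3 of 4 had no overlap between days, beside 64.3%. The count that fell was 0 also at an unadjusted p and by edgeR and DESeq2. Each of these tools called 3 of the 4 higher, beside 140 of all 521 tested miRNAs higher and 74 lower by edgeR. The share of all miRNAs called by DESeq2 is not given here. The miR-26a-5p call was lost without replicate 3 of D3 at day 7 (0.78, limma adjusted p = 0.0538). The miR-26b-5p call was lost without replicate 2 or 3 of D3 at day 7 (0.82 and 0.87, limma adjusted p = 0.13 and 0.103) and without replicate 2 or 3 of D3 at day 21 (0.84 and 0.69, adjusted p = 0.0563 and 0.0968). On the deposited scale, where 8.06% of all tested miRNAs were higher and 31.5% lower, none of the 4 was called in limma, and miR-26a-5p stood at 0.08 and miR-26b-5p at 0.12 (0 of 4 at an unadjusted p under 0.05 too). Between the same days 3 of 4 markers of heart and skeletal muscle were higher in limma on the relative scale (median change 4.41), with summed relative values of 186 to 542 at day 21, against 7.32 to 10.1 at day 7. Of the 5 of mesenchyme and smooth muscle 3 were higher, with sums of 5838 to 8756 at day 21, against 2462 to 2859 at day 7, and on the deposited scale 2 were higher and 1 lower. Of the 4 tested of neural cells 3 were lower, with sums of 999 to 1254.0 at day 21, against 4156 to 4964 at day 7. The 3 pluripotent markers of the miR-302 cluster were higher and 2 of the miR-290 cluster lower. Their part in the miR-26 differences was not tested.

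**Figure D2:**
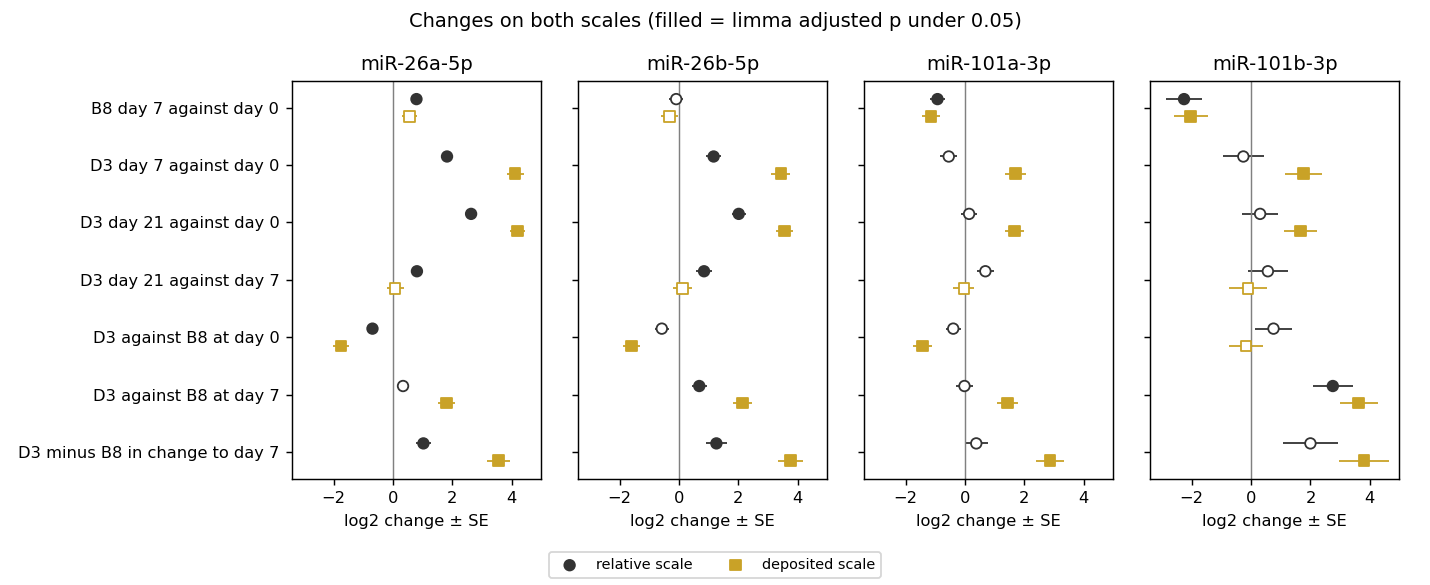
Log2 changes (x axis, ± SE) of each miRNA in the 7 comparisons (y axis), on the relative scale (circles) and the deposited scale (squares); filled symbols passed an adjusted p under 0.05 in limma. The miR-26 pair is higher in D3 at day 7 and day 21 than at day 0 on both scales, and the miR-101 pair lies at -0.55 and -0.26 on the relative scale but at 1.71 and 1.77 on the deposited scale for D3 at day 7 against day 0.

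Between the lines at day 0, D3 ESCs had less miR-26a-5p than B8 ESCs, with a log2 difference of -0.69 ± 0.17 (0.621-fold, limma adjusted p = 0.00667). miR-26b-5p differed by -0.58 ± 0.23 (adjusted p = 0.0869 in limma), a call that passed without replicate 3 of B8 at day 7 (adjusted p = 0.0411). miR-101a-3p differed by -0.40 ± 0.26 (95% interval -0.95 to 0.15) and miR-101b-3p by 0.75 ± 0.61 (95% interval -0.54 to 2.05), with limma adjusted p of 0.311 and 0.416. So 1 of 4 was lower in D3 and 0 higher at an adjusted p under 0.05 in limma, beside 15.7% and 7.68% of all tested miRNAs, and 3 of 4 had no overlap between the lines, beside 37.8%. The count higher was 0 also at an unadjusted p and by edgeR and DESeq2. With equal column totals the miR-26a-5p difference was -0.50 (adjusted p = 0.0538 in limma). On the deposited scale 3 of 4 were lower, beside 46.1% of all tested lower and 0.96% higher, at -1.74 for miR-26a-5p, -1.60 for miR-26b-5p and -1.43 for miR-101a-3p. At the same day the 5 markers of mesenchyme and smooth muscle, a cell type that includes fibroblasts, were all lower in D3 than in B8 by limma, on all 4 scalings. Their summed relative values were 224 to 286 in D3 and 1970 to 2196 in B8, with miR-214-3p at 0 in all D3 libraries. Of the 3 tested of 4 blood markers, 2 were lower in D3, with sums of 19.6 to 23.7 in D3 and 329.9 to 424 in B8, and miR-223-3p and miR-451a at 0 in both lines. The part of these markers in the miR-26a-5p difference was not tested.

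At day 7, miR-26b-5p was higher in D3 than in B8 embryoid bodies by 0.69 ± 0.26 (1.61-fold, limma adjusted p = 0.0436) and miR-101b-3p by 2.75 ± 0.68 (adjusted p = 0.0043). The miR-101b-3p ratio from reads, 22 in D3 and 1 in B8, was 11.2 after scaling, with a 95% counting interval of 1.81 to 461, and its call was lost without replicate 3 of D3 at day 7 (2.32, limma adjusted p = 0.0665). miR-26a-5p differed by 0.34 ± 0.19 (95% interval -0.06 to 0.75, limma adjusted p = 0.178) and passed without replicate 1 of B8 at day 7 (0.55, adjusted p = 0.0208). miR-101a-3p differed by -0.02 ± 0.29 (95% interval -0.63 to 0.60, limma adjusted p = 0.973), and by 0.19 without replicate 2 of B8 at day 7 and 0.18 without replicate 3 of D3 at day 7. In limma 2 of 4 were higher and 0 lower, beside 24.4% and 16.3% of all tested, and 2 had no overlap between lines, beside 59.5%. The count lower was 0 also at an unadjusted p and by edgeR, which called 1 higher, and DESeq2. The miR-26b-5p call rested on small margins: it was lost without any 1 of 7 libraries (each of B8 at day 0, replicate 3 of B8 at day 7, both of D3 at day 7 and replicate 2 of D3 at day 21; 0.49 to 0.71, limma adjusted p = 0.0532 to 0.168), and with equal column totals the difference was 4.76e-05. On the deposited scale all 4 were higher in D3, beside 66% of all tested higher and 9.21% lower. The embryoid bodies of the lines differed in markers too. The 6 pluripotent markers of the miR-290 cluster were lower and the 3 of the miR-302 cluster higher in D3 than in B8 in limma, with summed relative values over the 9 of 1273 to 1513 in D3 and 4651 to 9464 in B8. Of the 5 markers of mesenchyme and smooth muscle 3 were higher, with sums of 2462 to 2859 in D3 and 801 to 1687 in B8, and of the 4 tested of neural cells 2 were higher, with sums of 4156 to 4964 in D3 and 2149 to 2889 in B8. With equal column totals 1 of these 5 and 0 of these 4 were called higher, and on the deposited scale 5 and 4. Of the 3 tested blood markers 2 were lower in D3, with sums of 0.611 to 1.66 in D3 and 21.6 to 35.3 in B8. Their part in the differences of the members was not tested.

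The change from day 0 to day 7 was compared between the lines as an interaction, D3 minus B8, which stood at 0.51 for the median miRNA. It was 1.03 ± 0.26 for miR-26a-5p (limma adjusted p = 0.00493) and 1.26 ± 0.34 for miR-26b-5p (adjusted p = 0.00855), so that both moved further upward in D3 than in B8, where miR-26b-5p had no call. For miR-101a-3p it was 0.38 ± 0.39 (95% interval -0.45 to 1.203, limma adjusted p = 0.497) and for miR-101b-3p 1.999 ± 0.92 (95% interval 0.06 to 3.94, adjusted p = 0.109). The last of these passed without replicate 3 of B8 at day 0 (2.499, limma adjusted p = 0.0426) or replicate 1 of B8 at day 7 (2.57, adjusted p = 0.0303). Of the 4, 2 were called higher and 0 lower in limma, beside 20.2% and 12.5% of all tested miRNAs, and the count lower was 0 also at an unadjusted p and by edgeR and DESeq2. With equal column totals neither miR-26 interaction was called (0.16 and 0.40, limma adjusted p = 0.723 and 0.521), and on the deposited scale all 4 were, beside 71.8% of all tested higher and 2.5% lower. Markers of mesenchyme and smooth muscle moved the same way: all 5 had a higher interaction in limma, with summed values of 2462 to 2859 (D3, day 7), 224 to 286 (D3, day 0), 801 to 1687 (B8, day 7) and 1970 to 2196 (B8, day 0). Markers of neural cells summed to 4156 to 4964 (D3, day 7), 96.1 to 111 (D3, day 0), 2149 to 2889 (B8, day 7) and 118 to 137 (B8, day 0), with 2 of 4 tested having a higher interaction (0 higher and 1 lower with equal column totals) and miR-137-3p at 0 at day 0 in both lines. Of the pluripotent markers the 3 of the miR-302 cluster had a higher and the 6 of the miR-290 cluster a lower interaction. The part of these markers in the miR-26 changes was not tested.

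Ratios of the members within a library do not depend on how libraries are scaled. The ratio of miR-26a-5p to miR-101a-3p reads (log2, with 0.5 read added to each) was 4.54, 3.89 and 3.92 in D3 at day 0, 6.34 and 6.70 at day 7, and 6.74, 6.79 and 6.40 at day 21. It was 6.62, 5.48 and 6.29 in B8 at day 7, against 4.65, 4.36 and 4.25 in B8 at day 0. Every library of day 7 or day 21 was above every library of day 0, in either line. As geometric means this was 17.4, 91.8 and 99.9 reads of miR-26a-5p for each of miR-101a-3p in D3 at days 0, 7 and 21, and 70.1 in B8 at day 7, against 21.4 in B8 at day 0. The mean difference of day 7 from day 0 over both lines was 2.06 (2.40 in D3 and 1.71 in B8; exact permutation within lines, 2-sided p = 0.005, the smallest that 200 arrangements can give; adjusted over 7 ratios, 0.035). For D3 at day 21 against day 0 it was 2.52 (exact permutation p = 0.1, the smallest that 20 arrangements can give).

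Within the miR-26 pair the more abundant member gained in the reads as counted, though the split of reads within the pair is uncertain. The log2 ratio of miR-26a-5p to miR-26b-5p was 4.23 ± 0.25, 4.91 ± 0.08 and 4.87 ± 0.19 in D3 at days 0, 7 and 21 (SD, n = 3, 2 and 3), and 5.24 ± 0.43 in B8 at day 7 and 4.36 ± 0.31 in B8 at day 0 (SD, n = 3 each). This corresponds to 18.8, 30.0 and 29.3 reads of miR-26a-5p for each of miR-26b-5p in D3, and to 37.8 in B8 at day 7 and 20.5 in B8 at day 0. In both lines all libraries of day 7 lay above all of day 0, with a mean difference of 0.78 (exact permutation within lines, 2-sided p = 0.01, adjusted over 7 ratios 0.035). Without any 1 of the 6 day 0 libraries the adjusted exact p of this ratio and of the ratio to miR-101a-3p was 0.0583 or 0.07, with fewer arrangements to draw on and differences of 0.69 to 0.85 and 2.0 to 2.16. The ratio of miR-101a-3p to miR-101b-3p did not pass (mean difference 0.41, exact permutation p = 0.46, adjusted 0.672), with means of 2.74 ± 0.09, 2.61 ± 0.94 and 2.72 ± 0.66 in D3 at days 0, 7 and 21 and 4.91 ± 1.22 in B8 at day 7 and 3.96 ± 0.74 in B8 at day 0.

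**Figure D3:**
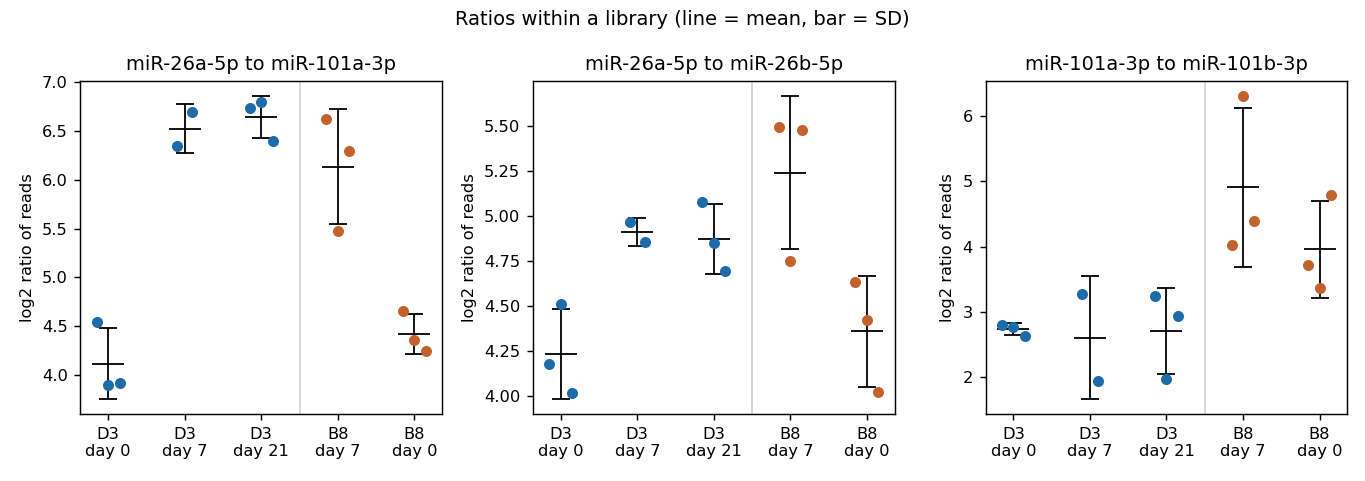
Log2 ratios of reads within a library (y axis) for miR-26a-5p to miR-101a-3p, miR-26a-5p to miR-26b-5p and miR-101a-3p to miR-101b-3p, by line and day; lines are means and bars SD. The first ratio is between 3.89 and 4.65 in the day 0 libraries of both lines and between 5.48 and 6.79 in all later ones.

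The other arms of the same precursors were rare. Over all 14 libraries miR-26a-1-3p had 12 reads, miR-26a-2-3p 65, miR-26b-3p 75, miR-101a-5p 20 and miR-101b-5p 1, against 65212 of miR-26a-5p, 2279 of miR-26b-5p, 900 of miR-101a-3p and 116 of miR-101b-3p. Only miR-26a-2-3p and miR-26b-3p passed the filter, and neither was called in any of the 7 comparisons on the relative scale in limma or by edgeR and DESeq2, with 1 of the 2 at an unadjusted p under 0.05 in limma in D3 at day 7 against day 0. Both were, on the deposited scale, called higher in D3 at day 7 and at day 21 against day 0 and in the interaction, 1 was higher in D3 than in B8 at day 7 and 1 lower at day 0. Ratios of main to other arm, 4 of the 7 ratios adjusted together, are not read here, since the other arms had 0 to 15 reads in a library and the 0.5 read added weighs heavily on them. A further entry, miR-101c, whose annotated sequence is identical to bases 2 to 20 of miR-101a-3p, had 2 reads in all.

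The likeness of other miRNAs to each member was measured by Pearson's r of log2 relative values over the 14 libraries, which share the 5 groups and their differences in depth, so that these values describe the groups and carry no test. The 3 miRNAs most like miR-26a-5p were miR-193b-3p (0.97), let-7g-5p (0.95) and miR-351-5p (0.95), and those most like miR-26b-5p were miR-152-3p (0.95), miR-199b-5p (0.93) and miR-146a-5p (0.91). For miR-101a-3p they were miR-29b-3p (0.86), miR-29a-3p (0.83) and miR-449a-5p (0.83). For miR-101b-3p, with few reads, they were miR-136-3p (0.91), miR-434-5p (0.89) and miR-369-3p (0.89). The miR-26 pair had r = 0.89 with each other, with miR-26b-5p in place 32 of 520 for miR-26a-5p and miR-26a-5p in place 13 for miR-26b-5p. The miR-101 pair had r = 0.44, in places 96 and 114, and miR-26a-5p and miR-101a-3p had r = -0.19.

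The same comparisons were read for 16 other miRNAs reported to target Ezh2, mostly the let-7 family, which blocks the stem cell programme and accumulates as cells differentiate. Of these 15 were tested, miR-137-3p being too low. Since most of the list is the let-7 family, its counts and medians mostly describe that family and carry no test. In D3, 14 of 15 were higher at day 7 than at day 0 and 0 lower, beside 36.1% and 26.9% of all tested, with a median of 3.43 against 0.27 for all miRNAs (in limma, and 0 lower also at an unadjusted p and by edgeR and DESeq2, here and at day 21). At day 21 against day 0, 13 were higher and 0 lower, beside 38% and 25% of all tested, with a median of 4.91 against 0.43. In B8 at day 7 against day 0, 9 were higher and 2 lower, beside 26.9% and 25.7% of all tested, with a median of 1.04 against -0.06. Medians of the list in these 3 comparisons were above 0 on all 4 scalings, with 10 higher and 1 lower in D3 at day 7 and 6 higher and 3 lower in B8 at day 7 under equal column totals. The calls among all miRNAs under equal column totals are given in the last section. The members called lower in B8 were let-7i-5p and miR-98-5p, both of the let-7 family, and with equal totals of all miRNAs but miR-10a and miR-10b neither was called in limma. On this list edgeR called 1 lower in B8 and DESeq2 1.

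Among the most abundant called members of the list, let-7a-5p was higher by 4.40 ± 0.21 in D3 at day 7 (21.1-fold, limma adjusted p = 1.29e-11), by 5.70 ± 0.19 in D3 at day 21 (52.0-fold, adjusted p = 9.49e-14) and by 1.56 ± 0.19 in B8 at day 7 (2.95-fold, adjusted p = 2.23e-06), each against day 0. let-7i-5p was higher by 4.25 ± 0.24 in D3 at day 7 against day 0 and lower in B8, where it stood at -0.75 ± 0.22 (limma adjusted p = 1.33e-10 and 0.00765). miR-25-3p, of the miR-106b cluster, was higher by 0.42 ± 0.16 in D3 and 0.36 ± 0.14 in B8 at day 7 (limma adjusted p = 0.029 and 0.04), and in B8 the call was lost on the deposited scale (0.13, adjusted p = 0.633). Beside these stand the rises of miR-26a-5p in D3, at 1.83 and 2.64, and the miR-101 pair, which had no called rise in any comparison of days on the relative scale in limma.

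**Figure D4:**
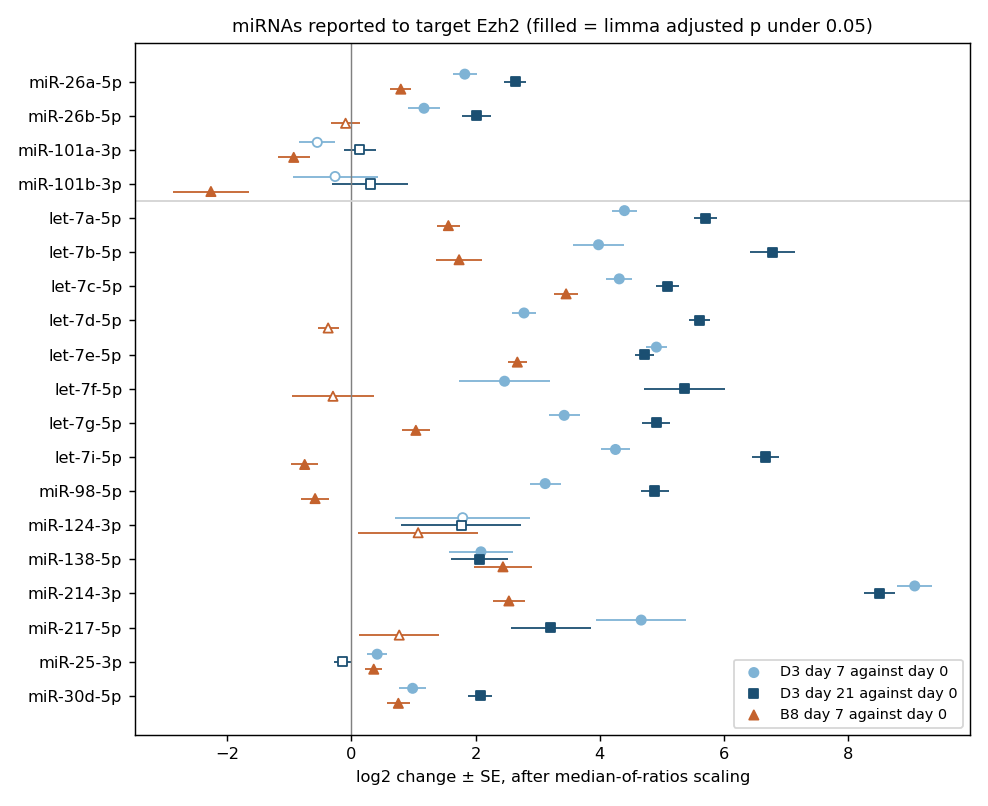
Log2 changes after median-of-ratios scaling (x axis, ± SE) of the miRNAs reported to target Ezh2 (y axis), with miR-26 and miR-101 above the line, for D3 at day 7 and day 21 and for B8 at day 7, each against day 0 of its line; filled symbols passed an adjusted p under 0.05 in limma. The let-7 members lie between 2.47 (let-7f-5p at day 7) and 6.78 (let-7b-5p at day 21) in D3, and in B8 let-7i-5p and miR-98-5p are filled below 0.

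Between the lines at day 0 the list was lower in D3 for 12 of 15 tested miRNAs and higher for 0, beside 15.7% and 7.68% of all tested, with a median of -2.08 against -0.13 for all miRNAs. The count lower was 10 to 12 over the 4 scalings, and the count higher was 0 in limma also at an unadjusted p and by edgeR and DESeq2. On the deposited scale 12 were lower, beside 46.1% of all tested. At day 7, 3 were higher and 1 lower in D3 than in B8, beside 24.4% and 16.3%. On the deposited scale 15 were higher and 0 lower, beside 66% and 9.21% of all tested. With equal column totals 6 were lower and 1 higher, and the calls among all miRNAs on that scale are given in the last section. From day 7 to day 21 in D3, 9 were higher and 1 lower, beside 16.1% and 10.4% of all tested, with a median of 1.09 against 0.02. On the deposited scale 6 were higher and 4 lower, beside 8.06% and 31.5%. For the interaction 11 were higher and 0 lower, beside 20.2% and 12.5% of all tested, with a median of 2.39 against 0.51, and 8 to 14 were higher over the 4 scalings, with 1 lower under equal column totals and 0 at an unadjusted p in limma on the relative scale and by edgeR and DESeq2. The 14 were on the deposited scale, where 71.8% of all tested were higher.

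Of 8 miRNAs reported to target other Polycomb genes (Suz12, Bmi1, Cbx7 and Jarid2), all were tested. Each count below is in limma unless edgeR is named, and each median stands beside that of all miRNAs. Counts on the relative and deposited scales stand beside the share of all tested miRNAs called on the same scale. For equal column totals, the calls among all miRNAs are given in the last section. In B8 at day 7 against day 0, 3 were higher and 1 lower, beside 26.9% and 25.7%, with a median of 0.74 against -0.06, and 2 were higher and 3 lower with equal column totals. In D3 at day 7 against day 0, 4 were higher and 2 lower, beside 36.1% and 26.9%, with a median of 0.71 against 0.27. Deposited values gave 7 higher and 0 lower there, beside 70.4% and 6.91%, and with equal column totals 2 were higher and 3 lower. In D3 at day 21 against day 0, 3 were higher and 0 lower, beside 38% and 25%, with a median of 0.37 against 0.43, and edgeR called 1 lower. With deposited values 7 were higher and 0 lower, beside 65.3% and 10.2%. In D3 at day 21 against day 7, 2 were higher and 2 lower, beside 16.1% and 10.4%, with a median of 0.33 against 0.02. There, deposited values gave 0 higher (also at an unadjusted p) and 3 lower, beside 8.06% and 31.5%. With equal column totals 5 were higher and 0 lower, beside 198 and 11 of the 521 miRNAs tested. In D3 against B8 at day 0, 0 were higher and 4 lower, beside 7.68% and 15.7%, with a median of -0.77 against -0.13, and the count higher was 0 also at an unadjusted p and by edgeR and DESeq2. Of the 8, 7 were lower on the deposited scale, beside 46.1%. In D3 against B8 at day 7, 1 was higher and 3 lower, beside 24.4% and 16.3%, with a median of -0.42 against 0.39, and 4 were higher and 1 lower on the deposited scale, beside 66% and 9.21%. For the interaction 3 were higher and 2 lower, beside 20.2% and 12.5%, with a median of 0.35 against 0.51, and 7 higher and 0 lower on the deposited scale, beside 71.8% and 2.5%. miR-181a-5p and miR-181b-5p, reported to target Cbx7, a reader of the histone mark that Ezh2 writes, were higher by 8.20 ± 0.30 and 7.67 ± 0.28 in D3 at day 7 and by 4.80 ± 0.27 and 5.34 ± 0.25 in B8 at day 7, each against day 0 (limma adjusted p = 4.79e-13, 4.79e-13, 2.54e-10 and 4.08e-11). miR-429-3p, reported to target Suz12, another core subunit of the complex, was at -0.79 ± 0.19 in D3 at day 7 against day 0 on the relative scale (limma adjusted p = 0.00143) and at 1.499 on the deposited scale.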

How the data were processed

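D3 and B8 mouse ESCs and their differentiating cultures were analysed from the deposited miRNA table of small RNA libraries, whose values are signal: reads per mature miRNA divided by a library factor, with TMM named by the table's title. Per the column titles, reads had passed cutadapt and a length step; per the submitters' processing notes, the tools were Bowtie, CASAVA, Partek and FastQC and the genome mm10. Versions, settings and the rule for reads that match several miRNAs are not given in the sources used here. Values worth up to 1000 reads were multiples of a smallest step, to within 0.01 read for 100% of them in each library, and so gave back whole reads. A library of D3 held 56377 to 129486 miRNA reads (day 0), 1008438 to 1060306 (day 7) or 547213 to 743039 (day 21), and one of B8 141823 to 256613 (day 7) or 138397 to 275271 (day 0). Total reads are not known.

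Deposited values were divided by median-of-ratios factors over 319 miRNAs above 0 in all libraries. The 521 miRNAs averaging 5 or more per 1000000 of a column's sum were tested as log2(value + 0.364), a pseudocount of 2 per 1000000 that makes changes of low miRNAs smaller, with limma 3.58.1 in R 4.3.3: 5 group means, a trended prior, 9 residual degrees of freedom, 2-sided moderated tests and Benjamini-Hochberg adjustment over all tested miRNAs, with a threshold of 0.05. The deposited scale had a pseudocount of 0.480. Recovered reads were also tested with edgeR 4.0.16 (quasi-likelihood) and DESeq2 1.42.0. Their counts of called members stand without the share of all miRNAs, except by edgeR in D3 at day 21 against day 7. The spread of groups of 2 or 3 libraries was pooled over groups. Ratios within a library were tested by exact permutation of days within lines.

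The members, lists, scale and tests were chosen with earlier results of these data known. Named miRNAs were the 4 members in every comparison, their other arms and miR-101c, for each list the 3 most abundant of those past the threshold in a comparison, and for each member the 3 miRNAs most like it; values are printed for a part of the list members that this rule names. The text also gives let-7b-5p, let-7f-5p and miR-98-5p, chosen after their values were seen. Tested on 20 simulations of 521 miRNAs with 200 changed, the fit found 21.3% of 1.5-fold, 50.8% of 2-fold and 79.5% of 4-fold changes for B8 at day 7 against day 0 (3.26% of calls false), and 16.4%, 41.5% and 72.8% of them for D3 at day 7 against day 0 (2.69% false). In the simulations only the day 7 group tested was changed, equally often up and down, and all other groups had the same means. The real groups all differ, so these shares do not cover errors from the choice of scale. Alternatives were other scalings (deposited, equal totals, or equal totals of all but miR-10a and miR-10b), pseudocounts of 0.2 and 10 per 1000000, no filter or one of 50 per 1000000, an untrended prior, fits to only the groups compared, a replicate block, and each library left out.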

Additional observations from a re-analysis of the deposited data

Results flagged for a closer look

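The change from day 0 to day 7 differed between the lines, tested as an interaction, for miR-26a-5p (D3 minus B8, 1.03 on the log2 scale, limma adjusted p = 0.00493) and for miR-26b-5p (1.26, adjusted p = 0.00855). Over the leave-one-out fits they ran from 0.90 to 1.23 and from 1.06 to 1.38 and passed the threshold each time, and with equal column totals they were 0.16 and 0.40 and did not. The median of all tested miRNAs in this interaction was 0.51 on the relative scale. For miR-26a-5p both lines rose, at 1.83 in D3 and 0.80 in B8, and for miR-26b-5p the changes were 1.17 in D3 and -0.09 in B8. Within a library, the ratio of the 2 miRNAs moved the same way in both lines, by 0.68 in D3 and 0.88 in B8.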

How the results depend on the processing

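Of 989 values under another setting, 896 kept their direction and side of the threshold (for counts of calls, stayed within 1.5 times), 43 lost and 16 gained a call, 23 changed sign and 11 counts moved by more. The cause of these changes was not tested, except that leaving out libraries leaves fewer values. The 989 include fits without a library of a group outside the comparison. There the log2 change could not move, and only the pooled spread and the adjusted p could, so the count of kept values is raised by them. Values below are log2 changes, or counts of calls in limma unless another tool is named.

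Deposited values gave, in B8 at day 7 against day 0, 0.57 for miR-26a-5p; in D3 at day 7 against day 0, 1.71 and 1.77 for miR-101a-3p and miR-101b-3p; in D3 at day 21 against day 0, 1.67 and 1.66 for the same; in D3 at day 21 against day 7, 0.079 and 0.12 for miR-26a-5p and miR-26b-5p, and -0.036 and -0.10 for miR-101a-3p and miR-101b-3p. In D3 against B8 they gave 245 calls (5 higher, 240 lower) at day 0, against 122 (40 and 82), with -1.60, -1.43 and -0.18 for miR-26b-5p, miR-101a-3p and miR-101b-3p, and 392 calls (344 and 48) at day 7, against 127 higher and 85 lower on the relative scale, with 1.82 and 1.43 for miR-26a-5p and miR-101a-3p. The interaction had 387 calls (374 and 13), against 170 (105 and 65), with 2.86 and 3.80 for miR-101a-3p and miR-101b-3p. The split of calls was 114 and 146, against 140 and 134, in B8 by day, 367 and 36, against 188 and 140, in D3 at day 7, 340 and 53, against 198 and 130, in D3 at day 21, and 42 and 164, against 84 and 54, in D3 at day 21 against day 7.

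Equal column totals gave 0.26 for miR-26a-5p in B8; 0.41, -0.23 and -1.94 for miR-26a-5p, miR-26b-5p and miR-101a-3p in D3 at day 7 against day 0; -0.22 and -0.028 for miR-101a-3p and miR-101b-3p at day 21 against day 0; 209 calls (198 and 11) and 1.72 for miR-101a-3p at day 21 against day 7; -0.50 for miR-26a-5p in D3 against B8 at day 0; -0.35 and 4.76e-05 for miR-26a-5p and miR-26b-5p at day 7; and 0.16, 0.40 and -0.48 for miR-26a-5p, miR-26b-5p and miR-101a-3p in the interaction. Their other splits were 95 and 186 in B8, 110 and 233 and then 177 and 158 in D3 at day 7 and day 21 against day 0, 48 and 65 and then 41 and 122 between lines at day 0 and day 7, and 52 and 107 for the interaction. Equal totals of all miRNAs but miR-10a and miR-10b gave 0.19 and -0.64 for miR-26b-5p and miR-101a-3p in B8, -0.014 for miR-101a-3p in D3 at day 21 against day 0, 0.58 for miR-26b-5p at day 21 against day 7 and 0.69 between lines at day 7.

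For miR-26b-5p between lines at day 7 the call was also lost with no filter, an untrended prior or a fit to only the groups compared (0.69 each) and by edgeR (0.36). The filter at 50 per 1000000 left 215 calls in D3 at day 21 against day 0, against 328. In D3 at day 21 against day 7, against 138 calls, a fit to only the groups compared gave 232 and edgeR 214, with 0.90 (edgeR) and 0.71 (DESeq2) for miR-101a-3p. DESeq2 gave -2.92 for miR-101b-3p in B8, not called, and edgeR -0.75 for miR-101a-3p in D3 at day 7 against day 0. Same-numbered libraries were not paired: no correlation of their deviations passed 0.1 (-0.08 to 0.10), and the replicate block changed 1 member's call, miR-26b-5p between lines at day 7 (0.67, adjusted p = 0.0644 in limma).

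Leaving out 1 library at a time gave -0.22 to 0.11 for miR-26b-5p in B8, -0.70 to 0.18 for miR-101b-3p in D3 at day 7 and -0.048 to 0.24 for miR-101a-3p in D3 at day 21, each against day 0. In D3 at day 21 against day 7 it gave 67 (without replicate 3 of day 7) to 161 calls, 0.75 to 0.87 for miR-26a-5p and 0.69 to 1.01 for miR-26b-5p. Between lines it gave -0.67 to -0.43 for miR-26b-5p at day 0 and, at day 7, 136 (without replicate 2 of D3) to 221 calls, 0.22 to 0.55 for miR-26a-5p, 0.49 to 0.81 for miR-26b-5p, -0.22 to 0.19 for miR-101a-3p and 2.32 to 3.33 for miR-101b-3p. It gave 1.56 to 2.57 for the miR-101b-3p interaction, and for ratios 0.69 to 0.90 (miR-26a-5p to miR-26b-5p), 1.93 to 2.22 (to miR-101a-3p) and -0.19 to 0.48 (to its other arms, which had few reads). With no read added, ratios that hold a count of 0 could not be computed. Depth limits miR-101b-3p most, with 0 to 36 reads a library, and D3 at day 0, which had the fewest reads.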
